A study of Equus caballus with 18 samples.

Results

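FKBP5, TSC22D3, DUSP1, PER1, KLF9, ZBTB16, SGK1, DDIT4, NFIL3 and ANXA1 are among the best known genes that glucocorticoids induce. They were followed in horse synovial fluid after a corticosteroid was injected into the joint. Each gene was represented by the probe set that carries its symbol alone, or by the brightest where there were several, which was the case for ANXA1 with 2. All 10 genes were found among the 16661 genes that 30559 probe sets named, and none was removed by a filter on low values.

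The animals were 6 exercised adult Thoroughbreds from a study of 12 mares and geldings aged 4 to 8 years. At the start of the experiment 8 mg of isoflupredone acetate, a synthetic corticosteroid, was given once into the right antebrachiocarpal joint, which lies in the carpus, the equine wrist. Fluid from that joint was profiled before the injection (baseline), at 24 h and on day 7, by when exercise had been resumed, and RNA came from 200 µl of fluid with an RNA integrity number of at least 8. The same horses served at every time, and the effect of the drug cannot be told apart here from those of the needle, of repeated sampling and of renewed exercise. Saline-injected joints were not analysed here.

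At day 7 the columns of horses 1 and 2 were identical for all 10 genes and for 99.3% of probe sets, and they were counted as 1 array. This left 6 baseline arrays, 6 arrays of 24 h and 5 of day 7. Which of the horses that array came from is not known, so its changes were taken against the mean of both horses. All values are log2 expression values, in which a difference of 1 is a 2-fold change. Array medians lay between 3.64 and 4.04, and the SD over the probe sets of an array ran from 1.22 to 1.5 at baseline, from 1.40 to 1.72 at 24 h and from 1.53 to 1.82 at day 7.

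A glucocorticoid enters the cell and binds the glucocorticoid receptor, the product of NR3C1, which is held in the cytoplasm by chaperones. The receptor then moves to the nucleus, binds DNA elements near its target genes and raises or lowers their transcription. In joints, corticosteroids are given to lower inflammation, and macrophages, neutrophils and lining cells all carry the receptor. The 10 genes act at different points. FKBP5 is a co-chaperone that lowers the receptor's affinity for its ligand, a negative feedback. TSC22D3 (the glucocorticoid-induced leucine zipper), DUSP1 (a phosphatase that switches off MAP kinases) and ANXA1 (annexin A1, a ligand of formyl peptide receptors that limits neutrophil entry) are mediators of the anti-inflammatory action. PER1, KLF9, ZBTB16 and NFIL3 encode transcriptional regulators, PER1 and NFIL3 within the circadian clock. DDIT4 inhibits mTOR signalling, and SGK1 is a kinase that regulates ion transport and cell survival.

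At 24 h against baseline, FKBP5, DDIT4 and PER1 rose and none of the other 7 genes passed the test, although all 10 fitted changes lay above 0. The test was limma's, with the horse as a block, adjusted over all 30559 probe sets, and a gene was called at an adjusted p under 0.05. Of all probe sets 1.01% were called in this comparison, 0.543% as higher and 0.471% as lower. The median log2 change was 1.14 over the 10 genes and -0.06 over all probe sets. An unadjusted p under 0.05 was reached by 8 of the 10 genes and by 6067 of 30559 probe sets. The genes lay mostly among bright probe sets: 8 of the 10 belonged to the brightest of 4 classes, in which the median change was 0.35 and 2.02% of probe sets were called as higher. The other 2, SGK1 and NFIL3, belonged to the second brightest class, with a median of 0.045 and 0.131% called as higher.

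**Figure D1:**
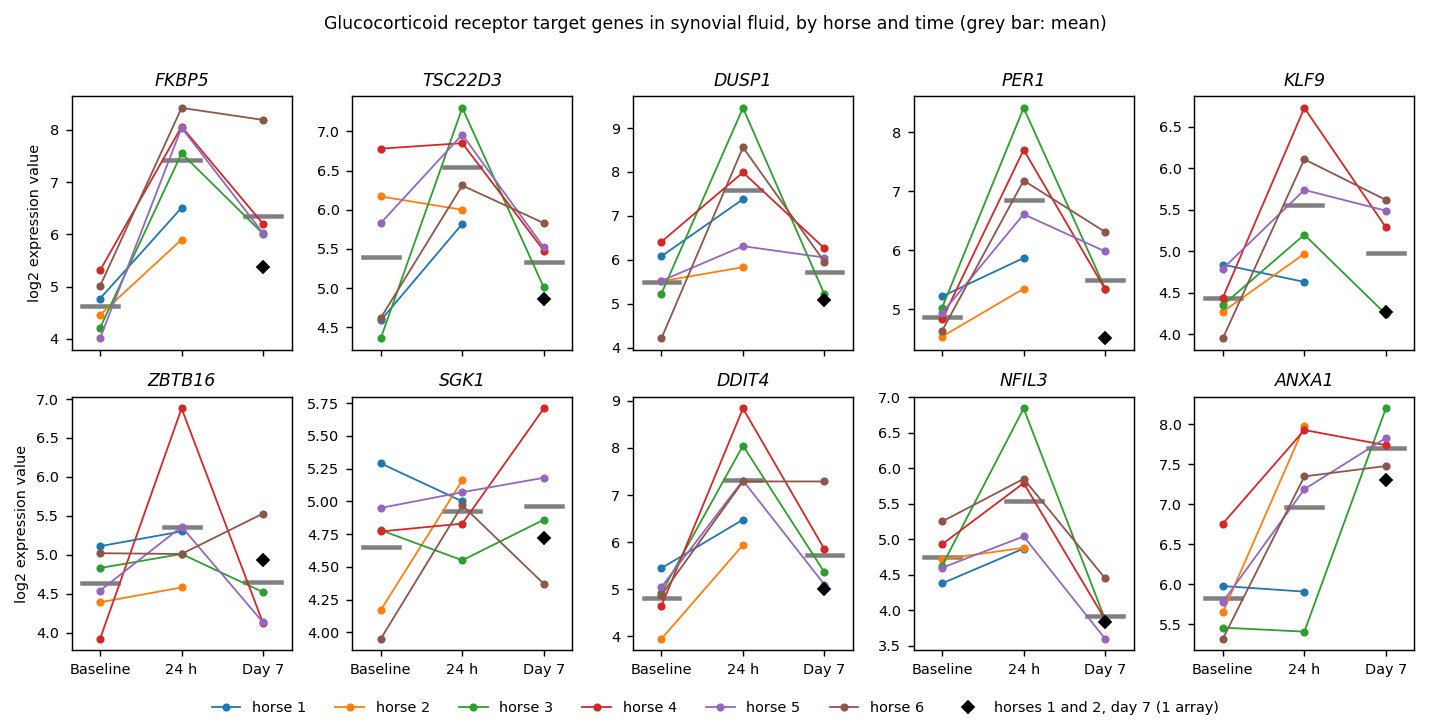
Log2 expression values of the 10 genes (y axes) at baseline, 24 h and day 7 (x axes), with a line per horse, a black diamond for the single day 7 array of horses 1 and 2, and a grey bar for the mean of each time. The 24 h values of FKBP5, DDIT4 and PER1 lie above every baseline value of the same gene, whereas those of SGK1 lie within its baseline range.

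FKBP5, the receptor's own feedback regulator, had the largest change of the 10. Its 24 h values in horses 1 to 6 were 6.51, 5.90, 7.55, 8.06, 8.04 and 8.42, against 4.77, 4.46, 4.21, 5.31, 4.01 and 5.01 at baseline. The groups did not overlap, and the lowest 24 h value, in horse 2, was above the highest baseline value, in horse 4. FKBP5 averaged 7.41 ± 0.99 at 24 h and 4.63 ± 0.49 at baseline (SD, n = 6 each). It rose 6.89-fold (log2 change 2.79 ± 0.35, SE, adjusted p = 0.0081), with changes between 1.44 in horse 2 and 4.03 in horse 5. Only 6 of the 16661 named genes had a larger rise.

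DDIT4, the brake on mTOR, ranged from 5.94 to 8.84 at 24 h (median 7.30), against 3.95 to 5.45 at baseline (median 4.91). All 24 h values were above all baseline values, with horse 4 highest and horse 2 lowest at 24 h. DDIT4 rose 5.66-fold (log2 change 2.5 ± 0.39, SE, adjusted p = 0.0196), and by between 1.03 in horse 1 and 4.19 in horse 4. PER1, a repressor in the circadian clock, ranged from 5.35 to 8.41 at 24 h (median 6.90), against 4.54 to 5.22 at baseline (median 4.89). It too had no overlap between the groups, and its baseline values were close together, with an SD of 0.25, against 1.14 at 24 h. PER1 rose 3.96-fold (log2 change 1.99 ± 0.37, SE, adjusted p = 0.0322), least in horse 1 at 0.65 and most in horse 3 at 3.38. The count of 3 of 10 genes without overlap stands beside 0.347% of all probe sets that were higher without overlap.

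The calls at 24 h depended on which arrays were kept. FKBP5 lost its call in 3 of 36 alternative settings, DDIT4 in 8 and PER1 in 15, and their fitted changes stayed above 0 in all of them. Without horse 5, 0 of the 10 genes were called (adjusted p = 0.0599 for FKBP5, 0.0748 for DDIT4 and 0.0945 for PER1), and 5 of 30559 probe sets. The count was 0 also on the arrays of these 2 times alone, where the adjusted p of FKBP5 was 0.0672, and with each array's SD as a covariate, where it was 0.119. FKBP5 alone was called when horse 3 or 6, the baseline array of horse 3 or 6, or the 24 h array of horse 5 was left out. PER1 also lost its call after quantile normalization and when horse 4, the baseline array of horse 5, the 24 h array of horse 2, 4 or 6, or the day 7 array of horse 4 was left out. Without the baseline array of horse 1, on the other hand, 5 genes were called, DUSP1 and KLF9 being the added ones (adjusted p = 0.0433 and 0.0265), and without horse 1 altogether 4 were called (KLF9, adjusted p = 0.041). The calls over all probe sets numbered 1257 and 427 in these settings, against 310 with all arrays.

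Of the anti-inflammatory mediators, DUSP1 came closest to the threshold. Its values ranged from 5.83 to 9.46 at 24 h (median 7.69), against 4.21 to 6.41 at baseline (median 5.52). It was higher in all 6 horses, but by 4.35 in horse 6 and 4.23 in horse 3, against 0.32 in horse 2, and 4 of the 6 values at 24 h lay above the baseline range. The log2 change was 2.10 ± 0.51 (SE, adjusted p = 0.0612), and the adjusted p was 0.0478 in the fit without the horse block. TSC22D3 spanned 5.82 to 7.30 at 24 h (median 6.58), against 4.36 to 6.78 at baseline (median 5.23). Its baseline arrays lay apart, with horses 2, 4 and 5 at 5.83 or above and horses 1, 3 and 6 at 4.62 or below. Its change did not pass (1.15 ± 0.36, SE, adjusted p = 0.111), and it was 2.94 in horse 3, 0.07 in horse 4 and -0.17 in horse 2.

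ANXA1 showed a divided picture at 24 h. Its values were 7.98, 7.93, 7.35 and 7.19 in horses 2, 4, 6 and 5 and 5.91 and 5.41 in horses 1 and 3, against a range of 5.32 to 6.76 at baseline (median 5.72). The first 4 horses lay above every baseline value, and the other 2 had changes of -0.07 and -0.05. The fitted change was 1.14 ± 0.37 (SE, adjusted p = 0.123). The other ANXA1 probe set, whose values correlated with those of the chosen set at r = 0.81 over the 17 arrays, changed by 0.72 ± 0.61 (SE, adjusted p = 0.539).

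The genes of transcriptional regulators other than PER1 had smaller fitted changes. KLF9, a Krüppel-like factor, ranged from 4.63 to 6.73 at 24 h (median 5.47), against 3.95 to 4.84 at baseline (median 4.4), and was higher in 5 of 6 horses (1.12 ± 0.30, SE, adjusted p = 0.0787). NFIL3, a repressor of clock output genes, ranged from 4.87 to 6.84 at 24 h (median 5.42), against 4.38 to 5.25 at baseline (median 4.68). It was higher in 6 of 6 horses, by 2.21 in horse 3 and by 0.16 to 0.86 in the others (0.79 ± 0.26, SE, adjusted p = 0.121). ZBTB16, a zinc-finger repressor also called PLZF, stood at 6.88 in horse 4 and at 4.58 to 5.36 in the other 5 horses at 24 h, against 3.92 to 5.11 at baseline. Its change of 0.72 ± 0.37 (SE, adjusted p = 0.291) was 2.96 in horse 4, 0.82 in horse 5 and between -0.01 and 0.19 in the remaining horses.

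SGK1, a textbook target in many tissues, showed the smallest fitted change of the 10 genes at 24 h. It ranged from 4.55 to 5.16 at 24 h (median 4.99), against 3.95 to 5.29 at baseline (median 4.78). No 24 h value lay above the baseline range, and the SD was 0.22 at 24 h and 0.50 at baseline. The fitted change was 0.28 ± 0.24 (SE, adjusted p = 0.541), above 0 in 4 of 6 horses. It was -0.28 with each array's SD as a covariate. SGK1 lay in the second brightest class of probe sets, and the part of its lower signal in the small change was not tested.

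**Figure D2:**
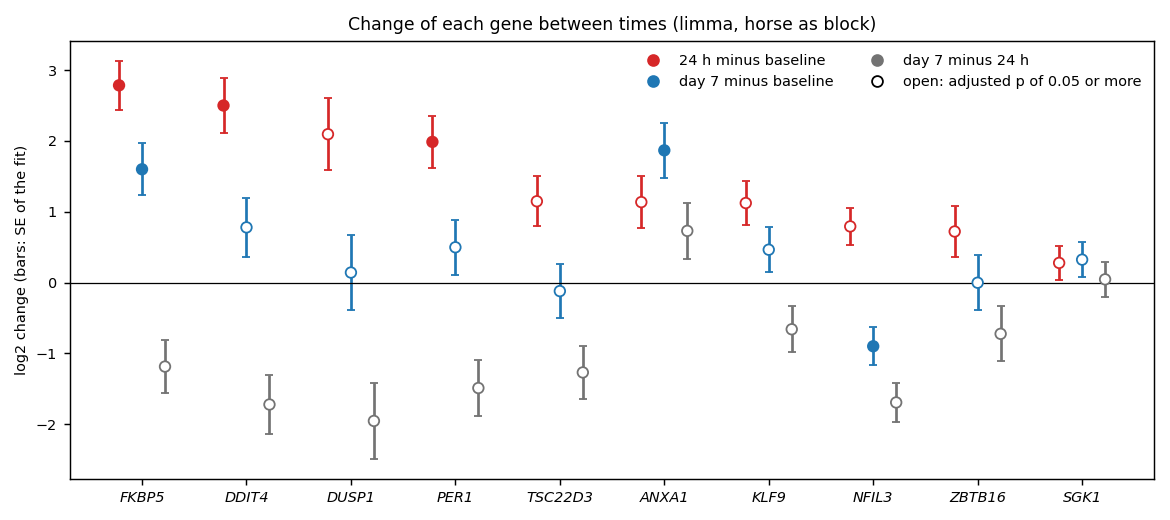
Fitted log2 change (y axis, bars are the SE of the fit) of each gene (x axis) for 24 h minus baseline, day 7 minus baseline and day 7 minus 24 h, with filled points for an adjusted p under 0.05. FKBP5, DDIT4 and PER1 are filled at 24 h, FKBP5, ANXA1 and NFIL3 at day 7 against baseline, and NFIL3 is the filled point below 0.

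At day 7 against baseline, FKBP5 and ANXA1 rose, NFIL3 fell, and the other 7 genes did not pass the test. Here 27.3% of all probe sets were called, 11.9% as higher and 15.4% as lower, so that 3 of 10 is close to the share of all probe sets. The median log2 change was 0.39 over the 10 genes and -0.24 over all probe sets. In the brightest class the median was 0.51, with 31.5% of probe sets called as higher. Comparisons at 24 h and at day 7 share the baseline arrays, so their values are set side by side and their likeness is not read as a result.

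FKBP5 stood at 5.38 in the array of horses 1 and 2 at day 7 and at 6.01, 6.20, 6.02 and 8.19 in horses 3 to 6, against a highest baseline value of 5.31. All 5 arrays lay above the baseline range, that of horses 1 and 2 only just. The gene was up 3.03-fold (log2 change 1.60 ± 0.37, SE, adjusted p = 0.0122), with changes between 0.77 for horses 1 and 2 and 3.18 in horse 6. The call was kept in 35 of 36 settings and lost with each array's SD as a covariate (log2 change 1.5, adjusted p = 0.807), where 0 of all probe sets were called. Every day 7 array had a larger SD than every baseline array, so that fit cannot tell the SD apart from time. The SE of FKBP5 was 0.73 in it.

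ANXA1 had its highest mean at day 7, although its day 7 and 24 h values overlapped and their difference did not pass the test. Its values were 7.30 for horses 1 and 2 and 8.20, 7.74, 7.83 and 7.48 in horses 3 to 6, against 5.32 to 6.76 at baseline. All day 7 values were above all baseline values, and horse 3, whose 24 h change had been -0.05, was now the highest. ANXA1 rose 3.65-fold (log2 change 1.87 ± 0.39, SE, adjusted p = 0.00916), and its other probe set rose by 2.62 ± 0.65 (log2 change, SE, adjusted p = 0.0153). The change was 0.37 (adjusted p = 0.957) with each array's SD as a covariate. FKBP5 and ANXA1 make 2 of 10 genes that were higher without overlap, against 3.62% of all probe sets; 0 of 10 were lower without overlap, against 8.11%.

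NFIL3 was the gene that fell. It stood at 3.83 for horses 1 and 2 and at 3.87, 3.87, 3.60 and 4.45 in horses 3 to 6 at day 7, against 4.38 to 5.25 at baseline. The groups met only through horse 6, whose day 7 value lay just above the lowest baseline value. The day 7 mean of NFIL3, 3.92, lay within the range of the array medians at day 7, 3.64 to 3.99. NFIL3 belonged to the second brightest class, in which the median change at day 7 was -0.04, against -0.30 and -0.61 in the classes below. The part of this low signal in the fall was not tested. The log2 change was -0.90 ± 0.27 (SE, adjusted p = 0.0291), below 0 in all 5 comparisons within horses and between -1.06 and -0.72. The call was lost in 12 of 36 settings: after quantile normalization (adjusted p = 0.0594), with each array's SD as a covariate (0.957), and without horse 4, 5 or 6, the baseline array of horse 2, 4, 5 or 6, or the day 7 array of horse 3, 4 or 5 (0.0508 to 0.0975). With the SD as a covariate the log2 change of NFIL3 was -0.31.

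DDIT4 and PER1, called at 24 h, did not pass at day 7. DDIT4 was at 5.0 for horses 1 and 2 and at 5.36, 5.85, 5.10 and 7.29 in horses 3 to 6, against a highest baseline value of 5.45. Horse 6 held the level it had at 24 h, 7.29, while horse 5 was 0.05 above its baseline (fitted change 0.78 ± 0.41, SE, adjusted p = 0.161). PER1 was at 4.51 for horses 1 and 2 and at 5.35, 5.34, 5.98 and 6.31 in horses 3 to 6, against 4.54 to 5.22 at baseline. Horses 3 to 6 were above the whole baseline range, but the fitted change did not pass (0.50 ± 0.39, SE, adjusted p = 0.333).

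For DUSP1 the day 7 mean was 5.71 ± 0.53 (SD, n = 5), against 5.49 ± 0.76 at baseline (SD, n = 6), and no day 7 value lay above the baseline range (log2 change 0.14 ± 0.54, SE, adjusted p = 0.85). TSC22D3 averaged 5.34 ± 0.40 at day 7 and 5.39 ± 1.00 at baseline (-0.12 ± 0.38, SE, adjusted p = 0.82). KLF9 had 4.27 for horses 1 and 2 and 4.24, 5.29, 5.49 and 5.62 in horses 3 to 6, against a highest baseline value of 4.84, so 3 of 5 arrays lay above it (0.46 ± 0.32, adjusted p = 0.272). ZBTB16 averaged 4.65 ± 0.60 at day 7 and 4.64 ± 0.45 at baseline, and SGK1 averaged 4.97 ± 0.51 at day 7 and 4.65 ± 0.50 at baseline (SD, adjusted p = 0.998 and 0.325). The SEs of these 5 fitted changes lay between 0.25 for SGK1 and 0.54 for DUSP1.

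Between day 7 and 24 h, 0 of the 10 genes and 0 of all 30559 probe sets (0%) were called by limma, while an unadjusted p under 0.05 was reached by 6 of the genes and by 4032 probe sets. The fitted log2 change was below 0 for 8 of the 10 genes, with a median of -1.23, against -0.15 over all probe sets. The 24 h arrays also serve, with the opposite sign, in the comparison of 24 h with baseline. A fall after a rise is therefore not read as a separate result. NFIL3 had the smallest p: its values were 3.60 to 4.45 at day 7 (median 3.87), against 4.87 to 6.84 at 24 h (median 5.42), with no overlap. It was the only 1 of the 10 that was lower without overlap, against 0.677% of all probe sets (log2 change -1.69 ± 0.27, SE, adjusted p = 0.145). It was called when horse 2 was left out (adjusted p = 0.0144), its 24 h array alone (0.0131) or the merged day 7 array (0.0363).

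The other differences between day 7 and 24 h were -1.95 ± 0.54 for DUSP1, -1.72 ± 0.41 for DDIT4, -1.49 ± 0.39 for PER1, -1.27 ± 0.38 for TSC22D3 and -1.19 ± 0.37 for FKBP5 (log2 change and SE, adjusted p between 0.224 and 0.26). Each of these 5 was lower at day 7 in every comparison within horses, except DDIT4 in horse 6, where both values were equal. KLF9 (-0.66 ± 0.32) and ZBTB16 (-0.72 ± 0.39) were further from the threshold. ANXA1 (0.73 ± 0.39) and SGK1 (0.05 ± 0.25) had fitted changes above 0. With array weights, 6 genes were called as lower: NFIL3, DDIT4, FKBP5, PER1, TSC22D3 and DUSP1 (adjusted p between 0.00281 and 0.0238), and so were 4821 probe sets in either direction, but the estimate of these weights stopped before it had converged.

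**Figure D3:**
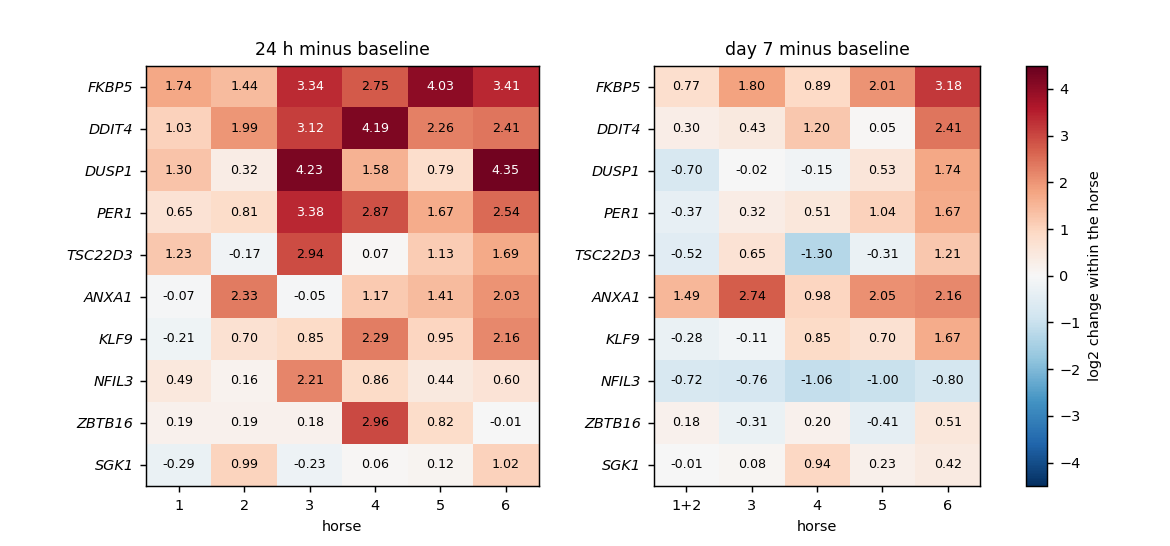
Log2 change of each gene (rows) within each horse (columns) for 24 h minus baseline and day 7 minus baseline, with colour and printed value for the change; at day 7 the array of horses 1 and 2 is set against the mean of their baselines. FKBP5 and DDIT4 are above 0 in every column. NFIL3 turns below 0 in all columns at day 7, and horse 6 holds the largest day 7 change of 7 genes.

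The horses differed in how far the genes moved. At 24 h the median change over the 10 genes was 2.58 in horse 3, 2.10 in horse 6, 1.94 in horse 4, 1.04 in horse 5, 0.76 in horse 2 and 0.57 in horse 1. More than a 2-fold rise was seen in 8 genes in horse 6 and 7 in horse 4, but in 4 genes in horse 1 and 3 in horse 2. The leading gene also differed: DUSP1 in horses 3 and 6, DDIT4 in horse 4, FKBP5 in horses 1 and 5, and ANXA1 in horse 2. At day 7 horse 6 stood apart, with 9 of 10 genes above its baseline, 7 of them by more than 2-fold, and a median change of 1.67, against -0.15 for the array of horses 1 and 2, 0.20 in horse 3, 0.68 in horse 4 and 0.38 in horse 5.

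The genes varied together across the arrays to different degrees. Over the 17 arrays Pearson's r was above 0 for 41 of the 45 pairs of genes, with a median of 0.55. The closest pairs were PER1 with DDIT4 (r = 0.92), FKBP5 with DDIT4 (0.89), DUSP1 with PER1 (0.88) and FKBP5 with PER1 (0.84). After the mean of each time was taken off, PER1 with DDIT4 was still the closest pair (0.80) and the median was 0.35. ANXA1 and SGK1 had lower values with the other genes. For ANXA1 r lay between -0.36 with NFIL3 and 0.49 with KLF9, with 0.04 for DUSP1 and 0.48 for FKBP5. For SGK1 it lay between -0.34 with NFIL3 and 0.47 with ANXA1, with 0.09 for FKBP5 and 0.35 for KLF9. These are descriptions without a test, since the arrays share horses and times and differ in their spread of values.

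**Figure D4:**
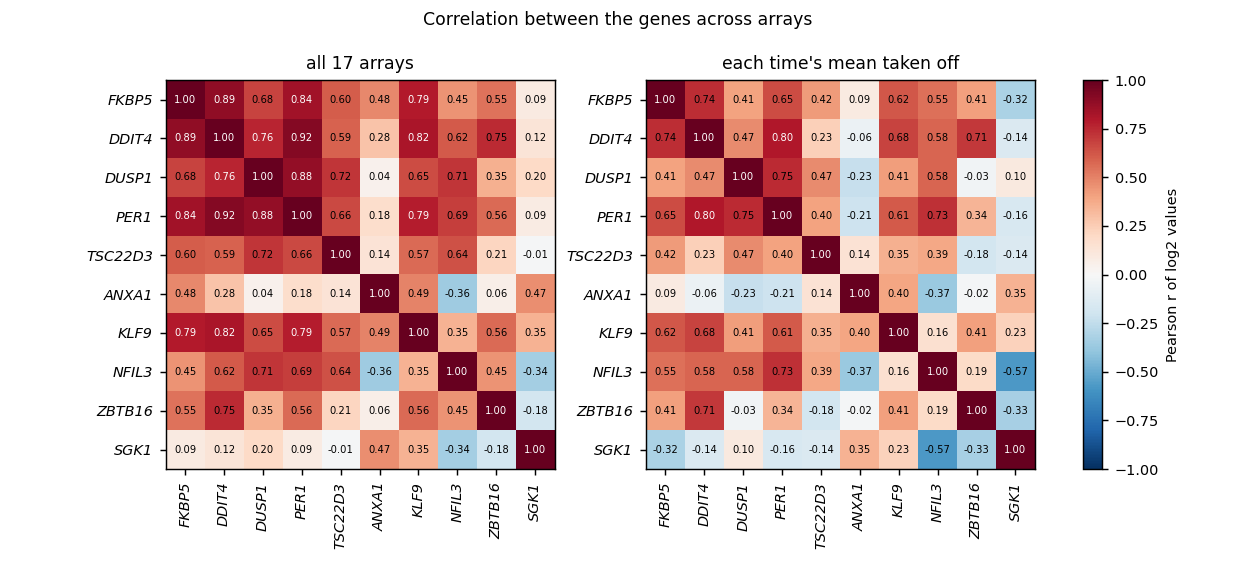
Pearson's r between the 10 genes over 17 arrays, for the log2 values (left) and after the mean of each time was taken off (right), from -1 in blue to 1 in red. FKBP5, DDIT4, DUSP1, PER1 and KLF9 have 0.65 to 0.92 with each other on the left, and with them ANXA1 has 0.04 to 0.49 and SGK1 0.09 to 0.35. Some pairs with other genes are as high, such as DDIT4 with ZBTB16 (0.75), DUSP1 with TSC22D3 (0.72) and DUSP1 with NFIL3 (0.71).

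Among all named genes, the 3 most like each of the 10 over the 17 arrays were sought by Pearson's r. ETS2, a transcription factor gene, was the closest to FKBP5 (r = 0.93), PER1 (0.95) and DDIT4 (0.94). FKBP5 was followed by CD163, a haemoglobin scavenger receptor of macrophages (0.90), and DDIT4 (0.89), and PER1 by DDIT4 and CCM2. DUSP1 was closest to CCM2 and RUBCNL (0.95 each) and to HCAR2, the niacin receptor (0.92). The closest genes to NFIL3 were MMP8, the neutrophil collagenase (0.90), TRPM2, a cation channel (0.89), and TGM3 (0.87). ANXA1 was closest to VAC14 (0.97), TKT, which encodes transketolase (0.97), and BLOC1S1 (0.96). TSC22D3 was closest to FAM117B (0.89), BTG1, an antiproliferative gene (0.89), and RAB24 (0.87), KLF9 to BRI3 (0.86), GALNS (0.85) and SDC1 (0.84), SGK1 to GLTP (0.84), TDRD3 (0.84) and MED17 (0.83), and ZBTB16 to OR13F8 (0.86), CDKN1A (0.79) and CCKAR (0.79).

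In a fluid that holds several cell types, fewer cells of a type and less RNA per cell cannot be told apart. Markers of macrophages and neutrophils moved with some of the 10 genes. The mean log2 value of 14 measured monocyte or macrophage markers was 5.67 ± 0.41 at baseline (SD, n = 6), 6.68 ± 1.10 at 24 h (SD, n = 6) and 7.48 ± 0.71 at day 7 (SD, n = 5), and their summed level ran from 9.70 to 11.6, from 9.87 to 12.6 and from 10.9 to 12.8 on the log2 scale. Of these markers 1 rose at 24 h, CD163, itself known to be induced by glucocorticoids, and 9 rose at day 7, CD163, MSR1, CD68 and MRC1 having the smallest p. Of all probe sets 0.543% were called as higher at 24 h and 11.9% at day 7, or 31.5% in the brightest class. ANXA1 had r = 0.88 with this mean and r = 0.91 with the array's SD. The 2 horses in which ANXA1 was flat at 24 h, horses 1 and 3, had the smallest changes of the macrophage mean there, -0.19 and 0.32, against 0.88 to 2.23 in the other horses. With the macrophage mean, r was 0.59 for FKBP5 and for KLF9, 0.35 for SGK1, 0.32 for DDIT4 and 0.25 for PER1. It was 0.18 for TSC22D3, 0.11 for DUSP1, 0.005 for ZBTB16 and -0.23 for NFIL3. The macrophage mean includes CD163, which had r = 0.90 with FKBP5, so it does not measure macrophage content alone.

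The mean of 11 measured neutrophil markers was 4.63 ± 0.43 at baseline (SD, n = 6), 5.31 ± 0.71 at 24 h (SD, n = 6) and 4.27 ± 0.22 at day 7 (SD, n = 5), with a summed level of 7.83 to 9.59, 8.65 to 12.1 and 7.94 to 9.15 on the log2 scale. TREM1 was the 1 marker that rose at 24 h, and at day 7 CXCR2 fell and TREM1 rose. These counts stand beside 0.543% of all probe sets called as higher at 24 h, and 11.9% as higher and 15.4% as lower at day 7. NFIL3 had r = 0.88 with the neutrophil mean, DUSP1 0.78, TSC22D3 0.72, PER1 0.68, DDIT4 0.55, FKBP5 0.52, ZBTB16 0.31 and KLF9 0.27. For ANXA1 r was -0.31 and for SGK1 -0.36. Horse 3, which had the largest 24 h changes of PER1, TSC22D3 and NFIL3, also had the largest change of the neutrophil mean, 2.03, while horse 2, which had the lowest 24 h changes of TSC22D3 and DUSP1, had a change of -0.705. Other horses went another way. In horse 1 the neutrophil mean changed by 1.26 and PER1 by 0.65, its smallest change. In horse 4 the neutrophil mean changed by -0.02, PER1 by 2.87 and NFIL3 by 0.86. The part of macrophages, neutrophils and the array's spread in these changes was not tested.

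**Figure D5:**
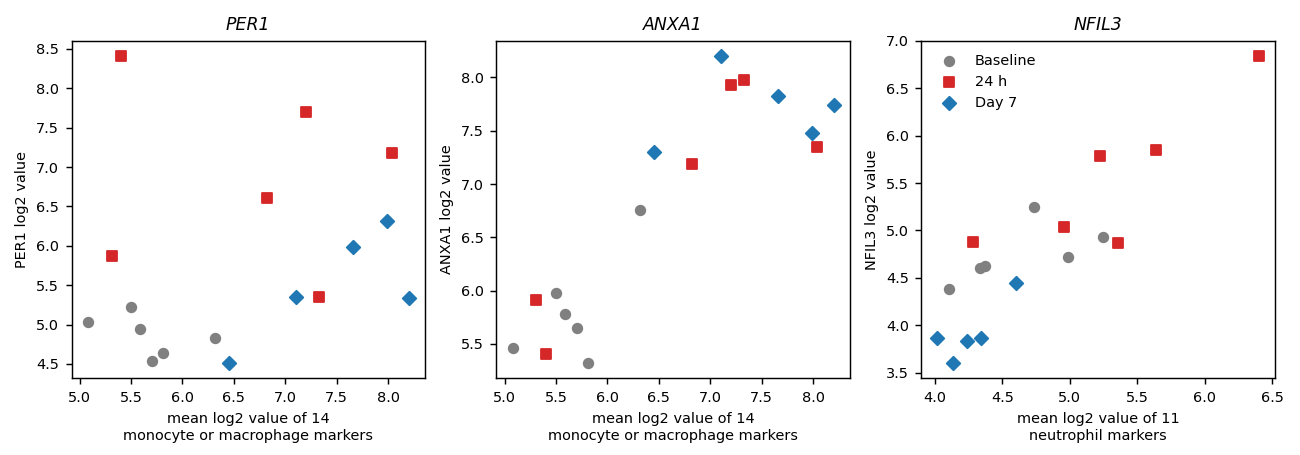
Log2 value of PER1 and ANXA1 against the mean log2 value of 14 monocyte or macrophage markers, and of NFIL3 against that of 11 neutrophil markers, with 1 point per array (grey circles baseline, red squares 24 h, blue diamonds day 7). ANXA1 is lower on the left and higher on the right over the 17 arrays, though not among those of day 7. In the PER1 panel the 24 h points run from 5.31 to 8.04 on the x axis. NFIL3 is higher where the neutrophil markers are higher, with 4 of its 5 day 7 values below all others.

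Markers of other cell types were set beside these genes too. Their counts stand beside 0.471% of all probe sets called as lower at 24 h and 15.4% at day 7. As higher, 11.9% of all probe sets were called at day 7. In the dimmest of the 4 classes of probe sets the median change at day 7 was -0.61. The mean of 14 T cell markers was 5.36 ± 0.61 at baseline, 5.33 ± 0.64 at 24 h and 5.0 ± 0.18 at day 7 (SD), and 0 of them were called at 24 h while ZAP70, CD6, TRAT1 and LCK fell at day 7. Of 12 NK or cytotoxic cell markers 1 fell at 24 h (GZMB) and 2 at day 7 (GZMB and PRF1). Among 11 synovial fibroblast, 13 chondrocyte, 9 endothelial and 5 red blood cell markers 0 were called at 24 h, while at day 7 CLIC5 fell among the fibroblast markers, COL9A2 and SOX9 among the chondrocyte markers, ERG and EMCN among the endothelial markers, and 0 among those of red blood cells. Of 10 B or plasma cell markers 0 were called at 24 h, and XBP1 rose and CD79B and BLK fell at day 7. The lubricin gene PRG4, a defining gene of the joint lining, and CD14, one of monocytes, had no probe set with their symbol alone.

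The receptor itself was measured and did not pass at any time. NR3C1 averaged 5.72 ± 0.56 at 24 h and 5.29 ± 0.80 at baseline (SD, n = 6 each), a log2 change of 0.43 ± 0.40 (SE, adjusted p = 0.576). At day 7 it averaged 6.20 ± 0.98 (SD, n = 5), a change of 0.87 ± 0.42 against baseline (SE, adjusted p = 0.126). Of 14 genes of the receptor, its chaperones and steroid metabolism 1 rose at 24 h, POR, the electron donor of microsomal cytochrome P450 enzymes (1.70 ± 0.28, SE). At day 7 4 of them rose, all chaperones or co-chaperones: HSPA8 (2.30 ± 0.60), HSP90AA1 (2.02 ± 0.48), STIP1 (1.37 ± 0.37) and HSPA4 (1.25 ± 0.38). The medians of this list were 0.43 and 0.76, against 0.01 and -0.04 over all named genes. Of all probe sets 0.543% were called as higher at 24 h and 11.9% at day 7, or 31.5% in the brightest class. Of 13 coregulators of the receptor 0 were called at 24 h, where NCOR1 (0.92 ± 0.31) and CREBBP (0.72 ± 0.25) had the smallest p. At day 7 6 rose, with the smallest p for NRIP1, a corepressor of nuclear receptors (2.38 ± 0.51), MED1 (1.63 ± 0.42), NCOR1 (1.10 ± 0.33) and NCOA1 (1.02 ± 0.32).

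A wider list held 32 other measured genes that glucocorticoids are known to induce. Of these, CD163 (4.78 ± 0.37, log2 change and SE) and MERTK, a receptor for the uptake of dying cells (2.38 ± 0.36), rose at 24 h, 0 fell, and the median change was 0.32. Of all probe sets 0.543% were called as higher at 24 h. At day 7 11.9% were called as higher, or 31.5% in the brightest class, and 15.4% as lower. At day 7 6 of the 32 rose, again with CD163 (4.11 ± 0.39) and MERTK (2.82 ± 0.38) first and then VSIG4, a complement receptor of macrophages (1.74 ± 0.40), and 3 fell, among them LCN2, a neutrophil granule protein (-0.93 ± 0.22), with a median of 0.00. Of 26 inflammatory genes that glucocorticoids are known to lower, 0 fell at 24 h. As 0.471% of all probe sets were called as lower there, 0 of 26 is near that share. MMP1, a collagenase (3.94 ± 0.71), and CXCL8, a neutrophil chemokine (1.51 ± 0.31), rose there, and the median was -0.09. At day 7 IL2 fell (-0.87 ± 0.22) and NFKB1 (1.56 ± 0.31) and TNF (1.29 ± 0.40) rose.

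Relatives of the 10 genes were set beside them. Of all probe sets 1.01% were called at 24 h and 27.3% at day 7. A count of 0 in a short list is thus near the share at 24 h, and does not set a gene apart from its relatives. Of 19 other clock genes 0 were called at 24 h, where PER1 rose by 1.99. CIART, a repressor of the clock (0.96 ± 0.26, SE, adjusted p = 0.0785), and CSNK1D, a kinase of PER proteins (1.07 ± 0.33, adjusted p = 0.111), had the smallest p. At day 7 CSNK1D, CLOCK and CSNK1E rose and HLF fell. Of 14 FKBP paralogs 0 were called at 24 h, with FKBP7 (-0.69 ± 0.20, adjusted p = 0.0967) and FKBP14 (0.41 ± 0.21, adjusted p = 0.284) first, and at day 7 FKBP15, FKBP1A and FKBP14 rose and FKBP7 fell.

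Of 9 DUSP paralogs 0 were called at 24 h, with DUSP16 at 0.59 ± 0.21 and DUSP9 at -0.59 ± 0.23 (log2 change and SE), and at day 7 DUSP6 rose (0.98 ± 0.34) and DUSP9 fell (-0.82 ± 0.24). Of the 3 TSC22D paralogs 0 were called at 24 h, with TSC22D1 at 0.77 ± 0.44 and TSC22D2 at 0.39 ± 0.28, and TSC22D1 rose at day 7 (1.48 ± 0.47). Of 12 measured KLF paralogs KLF6 was called at 24 h (0.97 ± 0.19), and KLF3 (1.81 ± 0.49) and KLF11 (1.09 ± 0.38) rose at day 7. The medians at 24 h were 0.06 for the DUSP, 0.43 for the TSC22D and 0.12 for the KLF paralogs, against 0.01 over all named genes. The counts of these paralogs stand beside 1.01% of all probe sets called at 24 h and 27.3% at day 7.

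Of 10 other annexins and formyl peptide receptors 0 were called at 24 h, where ANXA5 (1.52 ± 0.43, log2 change and SE) and ANXA7 (1.28 ± 0.48) had the smallest p. Of all probe sets 1.01% were called at 24 h. At day 7 11.9% were called as higher, and 31.5% in the brightest class. At day 7, when ANXA1 rose, 4 of the 10 rose as well. They were ANXA5 (3.09 ± 0.45, log2 change and SE), ANXA2 (2.75 ± 0.63), ANXA7 (2.30 ± 0.51) and ANXA4 (2.16 ± 0.46), each with a larger fitted change than the 1.87 of ANXA1. Around DDIT4, 0 of 10 other brakes and parts of mTORC1 signalling were called at 24 h, with TSC1 (0.81 ± 0.27) and TSC2 (0.46 ± 0.21) first, and 1 rose at day 7, TSC1, a subunit of the complex through which DDIT4 acts (1.38 ± 0.28). Around SGK1, 0 of 11 relatives, activators and substrates were called at 24 h, with FOXO3 (0.90 ± 0.21, adjusted p = 0.0544) and MTOR (0.99 ± 0.24, adjusted p = 0.0609) first. Of these 5 rose at day 7, with the smallest p for MTOR (1.23 ± 0.25), the paralog SGK3 (2.08 ± 0.51), MAPKAP1 (1.35 ± 0.36) and FOXO3 (0.76 ± 0.22), when SGK1 itself changed by 0.32 ± 0.25.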

How the data were processed

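Total RNA from synovial fluid of 6 horses was hybridised to an Affymetrix equine array at 3 times. The authors deposited log2 values for each probe set, and RMA, Expression Console and Transcriptome Analysis Console 3.0 are named, without roles, per the submitters' processing notes. Array medians and SDs differ, so the deposited values of the probe sets do not follow 1 common distribution over the arrays. The platform's table of genes gave exactly 1 symbol to 16789 of 30559 probe sets, several to 343 and none to 13427. For arrays, their number limits the precision.

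The day 7 columns of horses 1 and 2, identical at 99.3% of probe sets, were averaged into 1 array that counts in equal parts for both horses. Times were compared over 17 arrays by limma 3.58.1 (R 4.3.3), using two-sided moderated tests from lmFit and eBayes with the horse as a fixed block, since the titles name the same horses at each time, and 9 residual and 4.71 prior degrees of freedom. Once time means were removed, the median correlation between arrays was -0.02 within horses (18 pairs) and -0.00367 between horses (78 pairs). P-values were adjusted by Benjamini-Hochberg across the 30559 probe sets, and the threshold was 0.05. Changes in the text are fitted within horses and can differ from a difference of means.

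The genes, the gene lists and the tests were chosen with earlier results of these data known. The text names all 10 genes whatever their values, the 3 named genes most like each by Pearson r, NR3C1, and of each list the called genes in order of p, 4 at most, or the first 2 by p if no gene was called. Genes of lists are named for the comparisons with baseline, and uncalled cell type markers are not named. Correlations are descriptions: the arrays come from the same horses at 3 times and are not independent. Alternatives were the block, the arrays in the fit, the scaling, a filter on dim probe sets, the variance model, array weights, each array's SD as a covariate, the merged array, 1 probe set per gene, the other ANXA1 probe set, and each horse or array left out. The fit was tested on simulated data. Plots were made in Python 3.11.15 with matplotlib 3.10.9.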

Additional observations from a re-analysis of the deposited data

Results flagged for a closer look

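Of 30 groups of arrays (10 genes at 3 times), 1 held an array far from the others, where chance alone flags about 1 in 20 groups. ZBTB16 stood at 6.88 in horse 4 at 24 h and the next highest array at 5.36, a gap of 0.661 of the whole range, above the critical value of 0.625.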

How the results depend on the processing

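At 24 h against baseline 3 of the 10 genes were called and 310 of all probe sets. When the block was left out, in which the horse pairs the arrays, 4 of the 10 were called (DUSP1 added) and 437 probe sets. At day 7 against baseline the fit without the block called 3 genes and 9227 probe sets, against 3 and 8343 with it, and between day 7 and 24 h it called 0 of both. With the horse as a random effect in place of the block 608 probe sets were called at 24 h. Fitting baseline and 24 h arrays only left 2 probe sets and 0 of the 10 genes, and the array SD as a covariate left 1 and 0. The probe sets called at 24 h numbered 107 after quantile normalization, 164 after median centring, 157 without the dimmest 25%, 488 with both day 7 columns kept, and 494 or 168 with the merged array given to horse 1 or horse 2. Leaving out a horse or an array gave 5 to 1257 probe sets and 0 to 5 of the genes.

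At day 7 against baseline, where 8343 probe sets were called, there were 2858 after quantile normalization, 5090 without the dimmest 25%, 13636 with array weights, 4941 with 1 probe set per gene, where fewer were tested, and 0 with the array SD as a covariate, when 0 of the 10 genes were called too. The fit with this covariate cannot tell the SD apart from time, as every day 7 SD exceeded every baseline SD. Leaving out a horse or an array gave 1761 to 10934 probe sets and 2 or 3 of the genes. Between day 7 and 24 h, where the main count was 0, array weights called 4821 probe sets and 6 of the genes, leaving out the merged array 107 and 1, giving it to horse 1 12 probe sets, and 1 probe set per gene 1. Leaving out a horse or an array gave 0 to 610 probe sets and 0 or 1 gene. The share of calls that were higher was 53.5% at 24 h and 43.7% at day 7 against baseline, 65.4% and 56.4% after quantile normalization, and 64.6% and 60.2% after median centring. The median over all probe sets at day 7 against baseline was -0.24, and -0.06 and -0.09 with these scalings. The cause of these differences was not tested.

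Some changes that had not passed turned their sign. For ZBTB16 at day 7 against baseline the log2 change was 0.011 without the block, 0.0063 with the horse as a random effect, 0.043 on the arrays of both times alone, 0.15 after median centring, 0.85 with the array SD as a covariate, 0.058 with both day 7 columns, 0.053 with the merged array given to horse 2, and between -0.27 and 0.22 with a horse or an array left out. With the array SD as a covariate the change was -0.28 for SGK1 at 24 h, and at day 7 against baseline it was -0.45 for DUSP1, 0.18 for TSC22D3, -0.23 for KLF9 and -0.63 for SGK1. At day 7 against baseline DUSP1 had -0.20 after quantile normalization and -0.28 to 0.44 with a horse or an array left out, and TSC22D3 had 0.032 after median centring and -0.43 to 0.14. SGK1 between day 7 and 24 h had -0.055 after quantile normalization, -0.36 with the array SD as a covariate, -0.0033 with both day 7 columns, and -0.15 to 0.20 with a horse or an array left out. The planned search of promoters was not run.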
